A study of Homo sapiens with 6 samples.

Results

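The vacuolar ATPase (V-ATPase) is the proton pump of lysosomes, endosomes and the Golgi apparatus, and its subunit genes are described here in H929 (NCI-H929), an established human multiple myeloma line of wild-type genotype in the labels. The genes were chosen by name, as the rows whose Ensembl identifier pairs with 1 of 10 symbols, and all 10 were found among the 62703 genes of the tables and were among the 16082 tested. They are 6 genes of the V1 sector (ATP6V1A, ATP6V1B2, ATP6V1C1, ATP6V1D, ATP6V1E1 and ATP6V1H), 3 of the V0 sector (ATP6V0A1, ATP6V0B and ATP6V0D1) and the accessory protein gene ATP6AP1. Cells had been kept for 24 h with 1 µM Mi-2, which inhibits MALT1 (a protease), or with DMSO, the solvent, alone, and RNA was sequenced from 3 libraries of each group. H929 is 1 cell line, and no label says that its libraries were grown apart, so a p-value here sets a difference against the spread of these samples alone, and that spread may be only technical.

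The V-ATPase is a rotary machine. Its V1 sector, in the cytosol, splits ATP and turns a central shaft, and the V0 sector, in the membrane, uses that rotation to carry protons into the lumen. The acid it makes serves lysosomal enzymes, receptor recycling and secretion, and the pump is also part of the platform on the lysosome from which amino acids activate the kinase complex mTORC1. Several subunits are encoded by more than 1 gene, and in bone the osteoclast form carries the a subunit encoded by TCIRG1. The transcription factors TFEB and TFE3 are known to bind a motif built around CACGTG in promoters of many lysosomal genes, those of the pump among them.

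Library totals were 19980700 to 23756700 estimated counts (to the nearest 100). Levels are given as CPM, library-scaled counts after TMM normalisation, for comparison between libraries of the same gene, and as TPM, which is per transcript length, for comparison between genes. The 13 plasma cell markers checked were all tested, with summed levels of 13100 to 16300 CPM under DMSO and 14000 to 16100 CPM under Mi-2. Of these 13, edgeR called MZB1 (log2 fold change 0.70) and IRF4 (0.35) higher and SDC1 (-0.69), CD38 (-0.86) and FGFR3 (-0.72) lower, of which FGFR3 and MZB1 were called with any single library left out. Myeloid markers, 11 in all, summed to 0.398 to 1.34 CPM under DMSO and 0.771 to 1.3 CPM under Mi-2, with none tested. Osteoclast markers (5) summed to 21.8 to 27.3 and 21.4 to 27.1 CPM, of which CTSK (13.9 CPM in both groups on average) and OCSTAMP (9.72 and 8.69 CPM) made up most, while DCSTAMP, which osteoclasts need to fuse, was at or near 0. T and NK markers (6) summed to 26.7 to 33.1 CPM under DMSO and 39.5 to 45.4 CPM under Mi-2, nearly all of it CD3E (29.5 ± 3.15 and 41.7 ± 2.94 CPM, mean ± SD, n = 3), while CD3D and CD8A were listed at 0. The stromal, endothelial and epithelial markers (8) summed to 59.4 to 71.1 and 77.9 to 90.0 CPM, mostly PECAM1 (64.0 ± 6.08 and 81.7 ± 6.45 CPM), with COL1A2 and COL3A1 listed at 0. CD3E and PECAM1 were called higher (edgeR adjusted p = 0.0180 and 0.0488), CD3E in 5 of the 6 fits with a library left out and PECAM1 in 0 of 6 (adjusted p up to 0.0783 and 0.177). Erythroid and platelet markers (5) summed to 0.149 to 4.06 and 0.726 to 4.82 CPM, with PPBP and PF4 listed at 0. The part of these markers in the results was not tested, and in bulk RNA a change in the number of cells of a kind cannot be told apart from a change in RNA per cell.

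After 24 h with Mi-2, the V0 genes ATP6V0A1 and ATP6V0D1 rose, each by 1.35-fold, and none of the 10 genes fell. This is 2 of 10 called higher by edgeR's quasi-likelihood test (adjusted p under 0.05), beside 5.02% called higher, 6.03% called lower and 11.0% called in either direction among all tested genes. The 10 were chosen with earlier results of these data known, so this comparison only describes them. Over all 22 tested V-ATPase subunit and accessory genes, 2 were called higher and none lower. The other 8 of the 10 genes did not pass, and their folds lay between 0.928 and 1.37. The median log2 fold change of the 10 was 0.13, beside 0.00 over all genes tested, and 8 of the 10 values were positive, beside 8157 of 16082. In 3 of the 10 every Mi-2 library lay above every DMSO library, beside 15.7% of all tested genes, and 4 of the 10 had a positive value with an unadjusted p under 0.05, beside 12.9%. On simulated counts with 16082 genes and the spread of these libraries, the same test recovered 23 of 100 genes changed 1.5-fold and 68 of 100 changed 2-fold. No other genes were changed there, and the changed ones were drawn without regard to level. In the data 1777 genes were called, so recovery of the pump genes may differ from these shares.

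**Figure D1:**
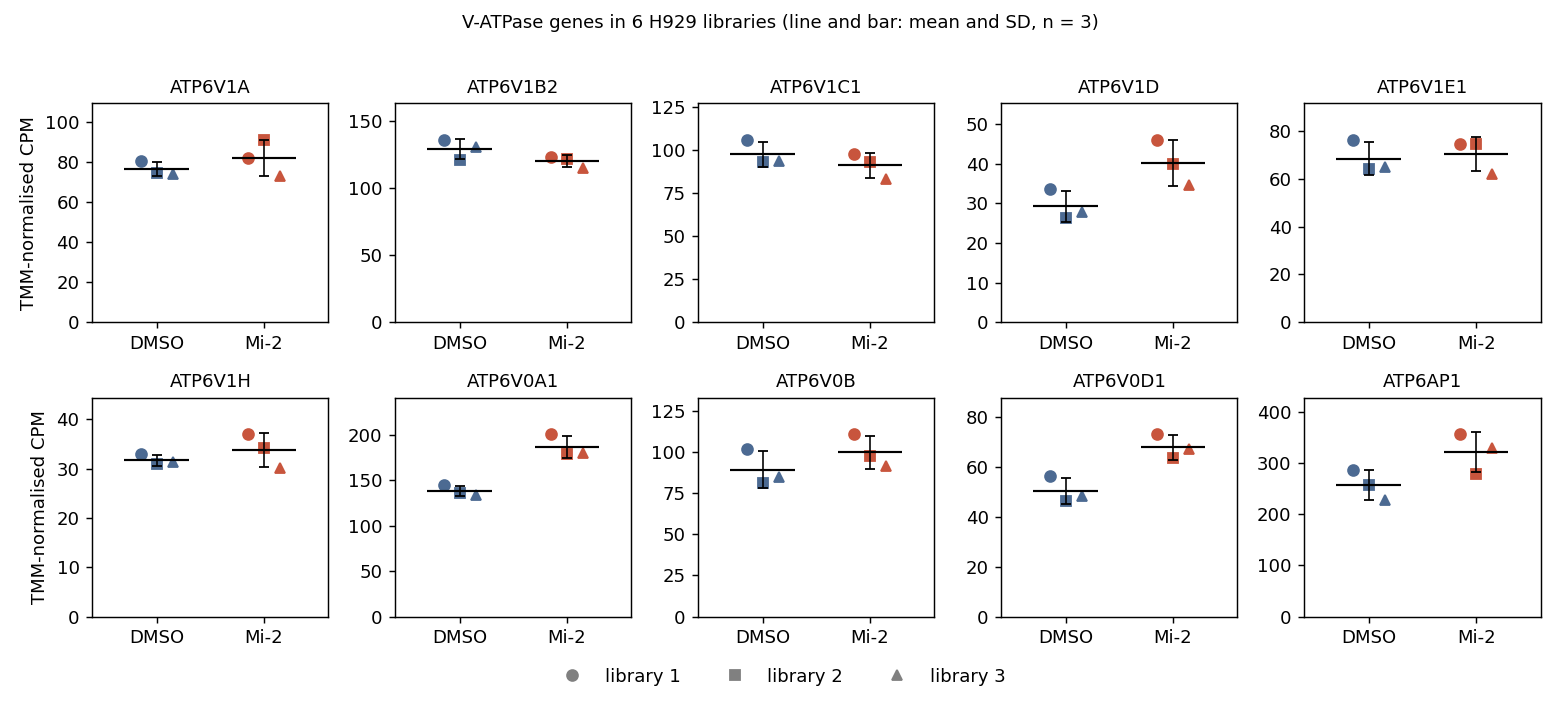
Each panel plots 1 V-ATPase gene, with TMM-normalised CPM on a y axis that starts at 0 and the 3 DMSO and 3 Mi-2 libraries as points shaped by library number (line and bar: mean and SD, n = 3). In ATP6V0A1, ATP6V0D1 and ATP6V1D the Mi-2 libraries all lie above the DMSO libraries, and library 1 is the highest DMSO point in all 10 panels.

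Both genes that rose belong to the V0 sector. ATP6V0A1 encodes the a1 subunit, the large membrane protein that holds the path of the protons (ENSG00000033627, GRCh38 chromosome 17, 42458844 to 42522611, plus strand). In libraries 1, 2 and 3 in that order, it stood at 145, 136 and 134 CPM under DMSO against 201, 179 and 180 CPM under Mi-2. The lowest Mi-2 library was thus well above the highest DMSO library, and the 3 libraries of each group lay close together. The means were 138 ± 5.99 and 187 ± 12.1 CPM (SD, n = 3), and the log2 fold change was 0.43 ± 0.08 (SE, 95% confidence interval 0.24 to 0.62, edgeR adjusted p = 0.0137).

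ATP6V0D1 encodes the d1 subunit, which couples the shaft of V1 to the ring of V0 (ENSG00000159720, chromosome 16, 67438014 to 67481237, minus strand). Its libraries had 56.3, 46.3 and 48.4 CPM under DMSO and 73.0, 63.3 and 66.9 CPM under Mi-2. The groups did not overlap, and library 1 was the highest in each. Means of 50.3 ± 5.29 and 67.7 ± 4.88 CPM (SD, n = 3) gave a log2 fold change of 0.43 ± 0.10 (95% confidence interval 0.21 to 0.65, edgeR adjusted p = 0.0253). Its d2 counterpart ATP6V0D2 was not tested, with 0.0994 CPM in DMSO library 1 and none in the other libraries.

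Both calls held when the first DMSO library, the second Mi-2 library or the third Mi-2 library was left out (3, 2 and 3 of the 10 called, beside 3.88%, 3.13% and 4.37% of all genes called higher) and were lost with each of the other 3. Leaving out the second DMSO library, the third DMSO library or the first Mi-2 library gave ATP6V0A1 an adjusted p of 0.0624, 0.0668 and 0.0618 and ATP6V0D1 one of 0.101, 0.103 and 0.104. None of the 10 genes was then called by edgeR (3 had an unadjusted p under 0.05 in each of these fits), beside 1.49%, 1.66% and 1.31% called higher among all genes. Among all genes 3453 of 16463, 3623 of 16535 and 3178 of 16481 had an unadjusted p under 0.05 in either direction. Over the 6 fits the log2 fold change ran from 0.38 to 0.47 for ATP6V0A1 and from 0.37 to 0.52 for ATP6V0D1. RLE scaling, a filter of 1 CPM in 3 libraries and limma-voom called the same 2 genes and none else of the 10, beside 5.03%, 6.02% and 4.94% of all genes called higher. On log2(TPM + 1), limma made no call among the 10 (adjusted p = 0.0629 for ATP6V0A1 and 0.114 for ATP6V0D1), beside 1.64% called higher, and on log2(TPM + 0.1) again none, beside 1.78%. With no filter on TPM it called no gene at all (0.0%). DESeq2 called 3 of the 10 higher, beside 6.86%.

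The third V0 gene, ATP6V0B, did not pass. It encodes the c'' proteolipid, 1 member of the rotating ring (ENSG00000117410, chromosome 1, 43974487 to 43978295, plus strand). DMSO libraries 1, 2 and 3 had 102, 81.2 and 85.1 CPM, and the Mi-2 libraries had 111, 97.5 and 91.4 CPM. The groups overlapped, and the log2 fold change was 0.16 ± 0.11 (95% confidence interval -0.09 to 0.41, edgeR adjusted p = 0.402).

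The V0 genes differ in whether their promoters hold the CACGTG core. The 250 bases before RefSeq's start were read from RefSeq's promoter windows on GRCh38.p14, which hold 6 of the 10 genes (ATP6V1A, ATP6V1B2, ATP6V1C1 and ATP6V1H have no entry). CACGTG, which reads the same on both strands, was found in 2 of those 6, ATP6V0B and ATP6V0D1, and in 6.34% of all 35116 windows of that length. The units differ in this and the next comparisons. A gene counts if any of its windows matches, the percentages are of windows, and some genes have more than 1 window. The longer TCACGTGA, which contains CACGTG, was found only in ATP6V0D1 among the 6, and in 0.854% of all windows. The windows of ATP6V0D1 (chr16:67481158-67481407, minus strand), ATP6V0B (chr1:43974710-43974959, plus strand) and ATP6V0A1 (chr17:42458628-42458877, plus strand) are shown because they set the 2 genes that rose beside the V0 gene that did not pass, and that of ATP6V1G1 (chr9:114587519-114587768, plus strand) because it alone among 18 subunit genes with an entry holds TCACGTGA with a G before and a C after it, found in 0.308% of all windows. Capitals mark CACGTG, and each sequence runs 5′ to 3′ on the gene's strand and ends 1 base before RefSeq's start of the gene. That start is not the outermost GENCODE start given with each gene here. It lies at 67481157 in ATP6V0D1, 43974960 in ATP6V0B and 42458878 in ATP6V0A1, which is 80, 473 and 34 bases downstream of the GENCODE start, so part of these windows, and all of that of ATP6V0B, lies within the GENCODE span. In ATP6V1G1 it lies at 114587769.
ATP6V0D1: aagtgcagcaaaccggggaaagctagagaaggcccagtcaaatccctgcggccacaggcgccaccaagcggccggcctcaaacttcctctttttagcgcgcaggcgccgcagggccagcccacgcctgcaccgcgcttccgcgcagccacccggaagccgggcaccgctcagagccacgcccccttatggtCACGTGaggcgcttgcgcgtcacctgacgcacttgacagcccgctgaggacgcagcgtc
ATP6V0B: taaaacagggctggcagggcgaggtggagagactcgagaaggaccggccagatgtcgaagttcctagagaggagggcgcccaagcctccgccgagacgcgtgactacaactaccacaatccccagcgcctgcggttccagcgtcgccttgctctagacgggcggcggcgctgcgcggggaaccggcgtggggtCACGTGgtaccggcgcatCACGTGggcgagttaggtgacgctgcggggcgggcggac
ATP6V0A1: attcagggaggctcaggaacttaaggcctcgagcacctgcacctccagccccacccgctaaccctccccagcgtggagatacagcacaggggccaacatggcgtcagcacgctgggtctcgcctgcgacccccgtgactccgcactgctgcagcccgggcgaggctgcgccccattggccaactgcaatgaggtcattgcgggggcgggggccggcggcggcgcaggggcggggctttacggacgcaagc
ATP6V1G1: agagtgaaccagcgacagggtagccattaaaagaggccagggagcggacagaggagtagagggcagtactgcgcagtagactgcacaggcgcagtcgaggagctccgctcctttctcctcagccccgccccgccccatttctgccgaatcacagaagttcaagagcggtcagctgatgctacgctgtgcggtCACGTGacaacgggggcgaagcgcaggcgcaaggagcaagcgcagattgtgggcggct
The core begins 59 bases before RefSeq's start in ATP6V0D1, 57 and 39 bases before it in ATP6V0B and 58 bases before it in ATP6V1G1. ATP6V0A1 has no CACGTG in this window. Among the 18 subunit genes with an entry, 4 hold CACGTG, the fourth being ATP6V0E2. The stress-response motifs TGACGTCA and TGACGTGG and the endoplasmic reticulum stress element (CCAAT and CCACG 9 bases apart), searched on both strands, were found in none of the 18 genes and in 1.65%, 0.612% and 0.0740% of all windows. These matches describe letters only, and whether the motifs bear on the fold changes was not tested.

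In the V1 sector none of the 6 genes was called in edgeR's main fit (all 6 libraries, filter on low counts, no block by library number). In that fit 1 had an unadjusted p under 0.05, beside 4347 of 16082 genes in either direction, and DESeq2 called 1. That gene was ATP6V1D, which encodes the D subunit, the shaft that V1 turns (ENSG00000100554, chromosome 14, 67294371 to 67360265, minus strand). In library order it stood at 33.7, 26.3 and 27.8 CPM under DMSO against 46.0, 39.8 and 34.6 CPM under Mi-2. The lowest Mi-2 library lay just above the highest DMSO library, so the groups were separate by less than 1 CPM. The log2 fold change, 0.45 ± 0.13 (95% confidence interval 0.16 to 0.75), was the highest of the 10 genes but came with a wider error than those of ATP6V0A1 and ATP6V0D1 (edgeR adjusted p = 0.0555). DESeq2 gave an adjusted p of 0.0220, and edgeR called it under upper-quartile scaling (0.0473, beside 5.74% of all genes called higher), with low counts left in (0.00430, beside 3.88%) and with DMSO library 1 (0.0373) or Mi-2 library 3 (0.0348) left out. The gene's span overlaps those of EIF2S1 (233 and 200 CPM on average with DMSO and Mi-2) and PALS1 (46.4 and 46.5 CPM) on the other strand, and no label states whether counting used strand.

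The subunits that bind nucleotide had values close to 0. ATP6V1A, the catalytic A subunit (ENSG00000114573, chromosome 3, 113747019 to 113812056, plus strand), had 80.4, 74.6 and 73.8 CPM under DMSO and 81.9, 90.9 and 72.7 CPM under Mi-2. Mi-2 library 2 was the highest and Mi-2 library 3 the lowest of all 6 libraries. Its log2 fold change was 0.10 ± 0.10 (95% confidence interval -0.11 to 0.32, edgeR adjusted p = 0.551). ATP6V1B2, the B2 subunit that pairs with A (ENSG00000147416, chromosome 8, 20197367 to 20226819, plus strand), had 136, 121 and 131 CPM under DMSO and 123, 122 and 115 CPM under Mi-2. The groups overlapped, with a log2 fold change of -0.11 ± 0.08 (95% confidence interval -0.29 to 0.08, edgeR adjusted p = 0.442). The interval of ATP6V1B2 lay below those of ATP6V0A1 (0.24 to 0.62) and ATP6V0D1 (0.21 to 0.65), while that of ATP6V1A overlapped both. The difference between genes was not tested.

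The stalk and regulatory subunits of V1 were not called either. ATP6V1E1, which encodes an outer stalk protein (ENSG00000131100, chromosome 22, 17592136 to 17628818, minus strand), had 76.4, 64.1 and 64.9 CPM under DMSO and 74.7, 74.8 and 62.3 CPM under Mi-2, a log2 fold change of 0.04 ± 0.11 (95% confidence interval -0.19 to 0.28). ATP6V1H, a subunit that restrains V1 when it is detached from V0 (ENSG00000047249, chromosome 8, 53715557 to 53843558, minus strand), had 33.0, 30.9 and 31.3 CPM under DMSO and 37.0, 34.1 and 30.2 CPM under Mi-2, a value of 0.09 ± 0.10 (-0.14 to 0.31). In both genes the Mi-2 libraries spread across the range of the DMSO libraries, with Mi-2 library 3 the lowest of the 6.

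ATP6V1C1 encodes the C1 subunit, which bridges V1 and V0 and leaves when the pump comes apart (ENSG00000155097, chromosome 8, 103021063 to 103073051, plus strand). By counts it had 106, 92.9 and 93.9 CPM under DMSO and 97.5, 93.1 and 83.2 CPM under Mi-2, which overlapped (log2 fold change -0.10 ± 0.09, 95% confidence interval -0.31 to 0.11, edgeR adjusted p = 0.555). By TPM the groups were separate, at 48.95, 45.55 and 44.35 TPM with DMSO and 43.84, 37.82 and 30.86 TPM with Mi-2, with a difference of -0.31 on the log2(TPM + 1) scale that did not pass (limma adjusted p = 0.224). The scales differ in the transcript length that the authors' estimate assigned to the gene in each library, which can be read from the count divided by the TPM. That length, relative to the gene's mean over libraries, was -0.05, -0.10 and -0.18 (log2) under DMSO and 0.00, 0.10 and 0.22 under Mi-2, in library order. The Mi-2 mean was 0.21 higher, and 3.58% of 8744 genes with at least 5 TPM in every library differed by this much or more in either direction. Among the other 9 genes the difference lay between -0.05 and 0.04.

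The accessory protein gene ATP6AP1 had the highest level of the 10 per transcript length (202 TPM). Its product, also called Ac45, sits in the V0 sector on the lumenal side (ENSG00000071553, chromosome X, 154428632 to 154436516, plus strand). It had 287, 256 and 228 CPM under DMSO and 356, 278 and 329 CPM under Mi-2. Mi-2 library 2 lay below DMSO library 1, so the groups overlapped. The log2 fold change was 0.32 ± 0.12 (95% confidence interval 0.06 to 0.59, edgeR adjusted p = 0.114), and with low counts left in edgeR called it (adjusted p = 0.0386).

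Library 1 of each group tended to be high for these genes, which was not particular to them. It was also the highest of each group for CTSD (239, 192 and 174 CPM under DMSO, 405, 321 and 319 CPM under Mi-2). The same held for SGSH (86.5, 72.7 and 66.2, then 123, 100 and 103 CPM). For TFEB it was the lowest of each (11.7, 16.8 and 17.3, then 16.2, 17.8 and 19.0 CPM). The share of all genes with library 1 highest was not computed. DMSO library 1 was the highest DMSO library for 10 of the 10 genes, and Mi-2 library 1 was the highest Mi-2 library for 8 of the 10. At the median of the 10 genes, DMSO library 1 was 0.21 above the mean of DMSO libraries 2 and 3 on the log2 CPM scale, and Mi-2 library 1 was 0.17 above that of Mi-2 libraries 2 and 3, where both values were 0.00 at the median of all tested genes. ATP6V1D (0.32 and 0.31) and ATP6V0B (0.30 and 0.23) had the largest values in the DMSO group, and ATP6V1D and ATP6AP1 (0.25 and 0.24) those in the Mi-2 group. With both libraries numbered 1 left out, a fit added after the data were seen, log2 fold changes of ATP6V0A1 and ATP6V0D1 were 0.41 and 0.46 (edgeR adjusted p = 0.0789 and 0.0716) and none of the 10 was called (4 had an unadjusted p under 0.05), beside 1.02% of all genes called higher. Among all genes 3082 of 16238 had an unadjusted p under 0.05 in either direction.

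Per transcript length, the genes fell into 3 tiers. Averaged over the 6 libraries, ATP6AP1 (202 TPM) and ATP6V0B (141 TPM) were the most abundant. ATP6V1E1 (77.0 TPM), ATP6V0A1 (59.2), ATP6V0D1 (54.6), ATP6V1B2 (53.7), ATP6V1C1 (41.9) and ATP6V1D (35.5) followed, and ATP6V1H (22.7) and ATP6V1A (22.0) were the lowest. Neighbours in this order overlapped in their ranges over the 6 libraries, except that ATP6V0B (lowest library 122.30 TPM) was above ATP6V1E1 (highest 86.35 TPM) and ATP6V1D (lowest 26.64 TPM) was above ATP6V1H (highest 25.33 TPM). Among the subunits outside the 10, ATP6V0C, the main proteolipid of the ring (145 TPM), ATP6V1G1 (140 TPM), ATP6V1F (112 TPM), TCIRG1 (105 TPM) and ATP6V0E1 (104 TPM) lay in the upper range.

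**Figure D2:**
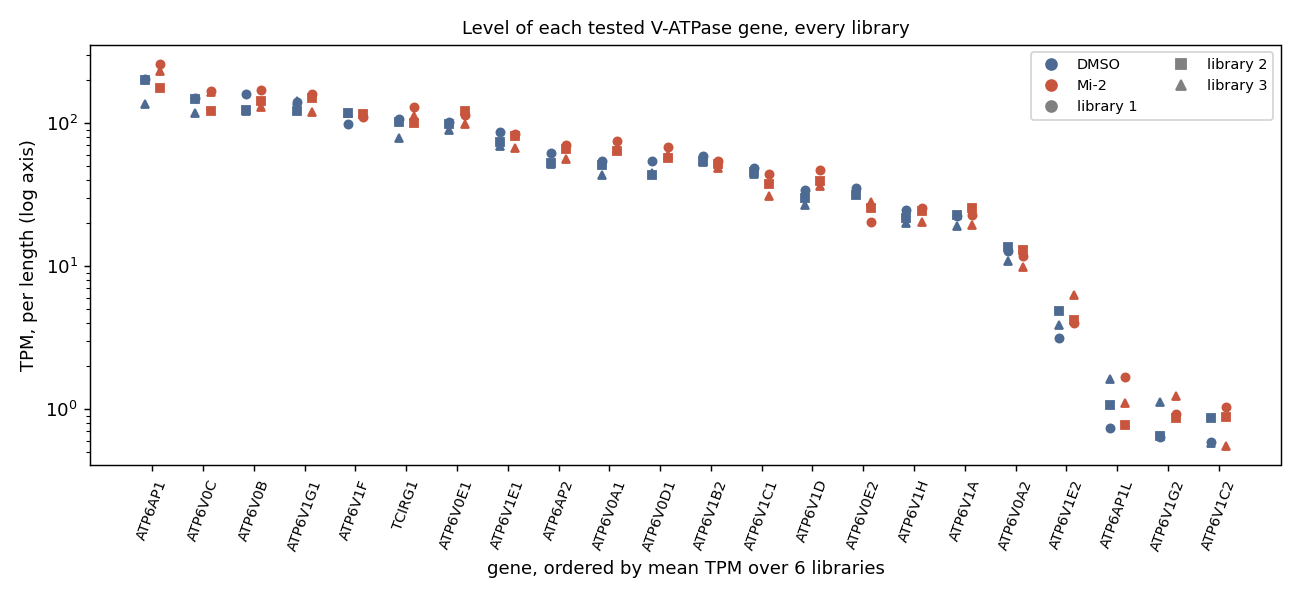
TPM (log axis) of each tested V-ATPase subunit or accessory gene in every library, ordered by mean TPM over the 6 libraries, with DMSO in blue and Mi-2 in red and shapes for library numbers. ATP6AP1 leads at 202 TPM on average, and the counterparts ATP6V1C2, ATP6V1G2 and ATP6AP1L lie near 1 TPM.

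None of the 12 tested genes among the 16 remaining subunit and accessory genes was called in edgeR's main fit or by DESeq2. In edgeR's main fit 3 had an unadjusted p under 0.05, beside 4347 of 16082 genes in either direction. DESeq2 was run on all genes with any count and gave values for 14 of the 16. There 1 had an unadjusted p under 0.05, beside 4079 of 31459 genes, a wider set than edgeR's. The median log2 fold change of the 12 was 0.18, and 10 of the 12 values were positive. ATP6V0C (0.16 ± 0.12), ATP6V1G1 (0.14 ± 0.11), ATP6V1F (0.08 ± 0.11), TCIRG1 (0.23 ± 0.12), ATP6V0E1 (0.20 ± 0.09) and ATP6AP2, the prorenin receptor (0.15 ± 0.12), had positive values with edgeR adjusted p from 0.178 to 0.705. ATP6V0A2 (-0.26 ± 0.12) and ATP6V0E2 (-0.38 ± 0.14) had negative values (edgeR adjusted p = 0.188 and 0.101), and ATP6V0E2 was called lower with low counts left in (0.0148) and with Mi-2 library 3 left out (0.0484). ATP6V1C2 (0.28 ± 0.31), ATP6V1E2 (0.43 ± 0.18), ATP6V1G2 (0.76 ± 0.48) and ATP6AP1L (0.29 ± 0.32) had few counts, at most 4.80 ± 0.387 CPM on average (ATP6V1E2 with Mi-2), and the first 3 of these overlap PDIA6, RHOQ and the read-through gene ATP6V1G2-DDX39B. ATP6V0A4 and ATP6V1G3, known from the kidney, were listed at 0 in all 6 libraries, where 3 counts would be 0.126 to 0.15 CPM by total count, a limit that covers counting error only. ATP6V1B1, also of the kidney, had 0.168 CPM in Mi-2 library 3 and 0 in the rest. Processed pseudogenes of ATP6V0C, ATP6V0E1, ATP6V1E1 and ATP6V1G1 held at most 0.0994 CPM, though reads that fit a gene and its copy are divided by estimate.

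**Figure D3:**
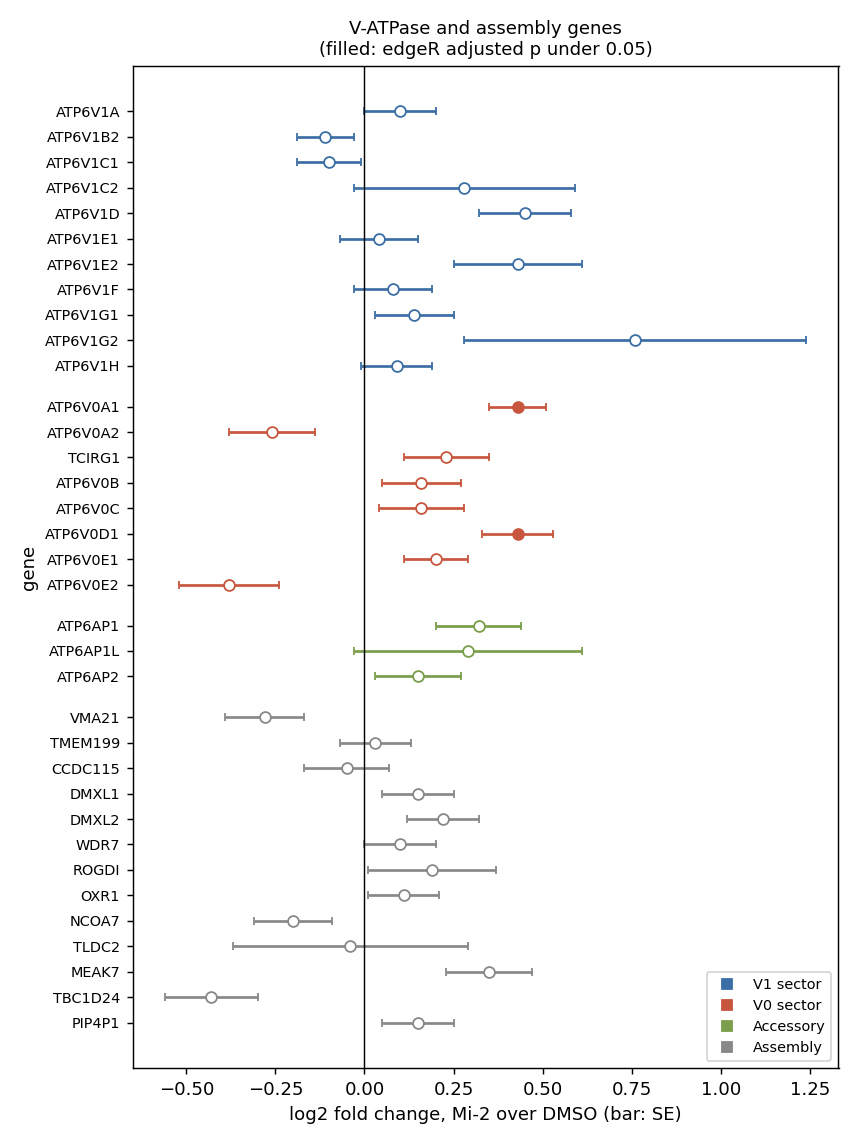
Log2 fold change of Mi-2 over DMSO (x axis, bar: SE) for each tested V-ATPase subunit, accessory and assembly gene, coloured by group, with filled points where the edgeR adjusted p was under 0.05. Only ATP6V0A1 and ATP6V0D1 are filled, both at 0.43, and ATP6V0E2 (-0.38) and TBC1D24 (-0.43) have the lowest values.

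Of the subunits with several genes, the a and e subunits drew on more than 1 gene in every library. By TPM, the shares of ATP6V0A1, ATP6V0A2, ATP6V0E1 and ATP6V0E2 had separate ranges with DMSO and Mi-2, while those of TCIRG1 overlapped. Within the a subunit, ATP6V0A1 made up 31.3, 30.4 and 32.7% of the summed TPM under DMSO and 34.7, 36.4 and 35.3% under Mi-2, in library order. The ranges did not overlap, and the mean share was 3.99 percentage points higher with Mi-2. TCIRG1 was the leading a gene in every library (60.6 ± 1.3% with DMSO and 58.5 ± 1.95% with Mi-2, SD, n = 3), and ATP6V0A2, whose product is placed mainly in endosomes and the Golgi apparatus, had shares of 7.89 ± 0.482% and 5.99 ± 1.15%, with separate ranges. By estimated counts, which are not divided by length, ATP6V0A1 was the leading a gene, at 46.3% on average with DMSO and 51.5% with Mi-2. Within the e subunit, a small membrane protein, ATP6V0E1 made up 74.3, 75.8 and 72.3% with DMSO and 84.9, 82.7 and 77.7% with Mi-2. That is 7.59 percentage points more on average, with ATP6V0E2 taking up the rest, and the antisense gene ATP6V0E2-AS1 (4.23 and 3.13 CPM on average) overlaps ATP6V0E2. The B, C, E, G and d subunits were each supplied almost wholly by 1 gene, ATP6V1B2, ATP6V1C1, ATP6V1E1, ATP6V1G1 and ATP6V0D1, with mean TPM shares of at least 94.0% in either group. By estimated counts the share of ATP6V1E2 in the E subunit was 4.99 ± 0.749% with DMSO and 6.43 ± 1.15% with Mi-2, with separate ranges, whereas by TPM the ranges overlapped. These shares are descriptions and were not tested.

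**Figure D4:**
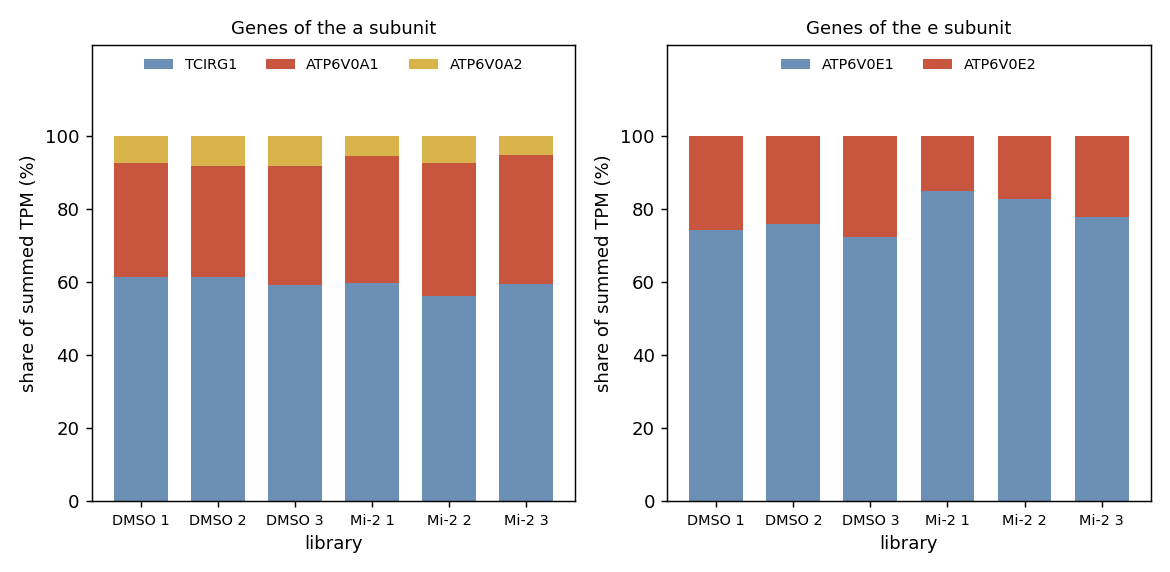
Share of summed TPM (y axis, %) held by each gene of the a subunit (left) and of the e subunit (right) in each of the 6 libraries, as stacked bars. ATP6V0A1 holds 30.4 to 32.7% with DMSO and 34.7 to 36.4% with Mi-2, and ATP6V0E1 holds 72.3 to 75.8% and 77.7 to 84.9%.

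None of the assembly factors of the pump was called in edgeR's main fit, beside 5.02% of all tested genes called higher and 6.03% lower. A block by library number called 1 higher and 2 lower, beside 1791 higher and 2035 lower among 16082 genes. Of 13 tested, 8 had positive and 5 negative values, with a median of 0.10. In the main fit 3 had an unadjusted p under 0.05, beside 4347 of 16082 genes in either direction. VMA21, TMEM199 and CCDC115 help to build V0 in the endoplasmic reticulum. VMA21 had 159, 157 and 158 CPM under DMSO and 122, 153 and 117 CPM under Mi-2, lower in every Mi-2 library, with a log2 fold change of -0.28 ± 0.11 (edgeR adjusted p = 0.128), and was called lower with Mi-2 library 2 left out (0.0312). TMEM199 (0.03 ± 0.10) and CCDC115 (-0.05 ± 0.12) had values near 0. DMXL1 (0.15 ± 0.10), DMXL2 (0.22 ± 0.10), WDR7 (0.10 ± 0.10) and ROGDI (0.19 ± 0.18), whose products rejoin V1 with V0, were positive and not called. Of the TLDc-domain genes, whose proteins can bind the pump, TBC1D24 (-0.43 ± 0.13, edgeR adjusted p = 0.0612) and NCOA7 (-0.20 ± 0.11) were lower and MEAK7 (0.35 ± 0.12, 0.0878) higher in every Mi-2 library, and TBC1D24 was called lower by DESeq2 (adjusted p = 0.0332) and by edgeR with low counts left in (0.0185). OXR1 (0.11 ± 0.10), TLDC2 (-0.04 ± 0.33) and the lysosomal membrane gene PIP4P1 (0.15 ± 0.10) did not pass.

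Around the pump, TFE3 rose. This transcription factor of lysosomal genes had 46.6, 45.0 and 58.3 CPM under DMSO and 77.9, 76.9 and 82.7 CPM under Mi-2, with no overlap (log2 fold change 0.66 ± 0.11, edgeR adjusted p = 0.00697), and it was called with any single library left out, though not with both libraries numbered 1 left out (adjusted p = 0.0694). Its relatives TFEB (0.21 ± 0.16) and MITF (-0.05 ± 0.22) were not called, nor was any other of the 22 tested genes in the list of TFEB relatives and the lysosomal mTORC1 platform, whose median was 0.06. As a list, 1 of 22 called higher is near the 5.02% called higher among all tested genes. None of the 15 tested endolysosomal ion channels and exchangers was called in edgeR's main fit or by DESeq2, among them the calcium channel gene MCOLN1 (0.02 ± 0.12). In each of these fits 3 had an unadjusted p under 0.05, beside 4347 of 16082 and 4079 of 31459 genes in either direction. The DESeq2 total is larger because that fit kept all genes with any count. With low counts left in edgeR called 1 (SLC9A9, higher, named after its values were seen). Of 37 lysosomal hydrolases and membrane proteins, 11 were called higher and none lower by edgeR (median 0.15), beside 5.02% of all tested genes called higher. On log2(TPM + 1) limma called only CTSD, beside 1.64%. With no filter on TPM it called none (13 had an unadjusted p under 0.05, beside 3808 of 31463 genes in either direction). With low counts left in edgeR also called 1 gene lower (CTSB, named after its values were seen). The 11 included the protease gene CTSD (202 ± 33.6 CPM under DMSO and 348 ± 48.8 CPM under Mi-2, 0.79 ± 0.14), ARSA (0.68 ± 0.16), NEU1 (0.59 ± 0.11) and SGSH (0.54 ± 0.12), which encode hydrolases of sulfated lipids, sialic acids and heparan sulfate. CTSD was called with any single library left out, whereas ARSA, NEU1 and SGSH lost their calls in the 3 fits that also lost ATP6V0A1 and ATP6V0D1 (adjusted p up to 0.0957), where the list had 2, 1 and 1 rises. With both libraries numbered 1 left out these 4 genes were the only ones of the list called. The mitochondrial ATP synthase, a related rotary enzyme, had 1 gene called higher and none lower by edgeR among 18 tested subunits. Of all tested genes 5.02% were called higher and 6.03% lower, so 1 of 18 is near the share of all genes. ATP5F1B was called lower with low counts left in, and the median of the 18 was -0.04. The gene called higher was ATP5ME (0.44 ± 0.10, edgeR adjusted p = 0.0274). It was not called with any library left out and had a value of 0.18 on log2(TPM + 1) (limma adjusted p = 0.329). DESeq2 called it too, and 2 subunits lower (ATP5F1A and ATP5F1B, named after their values were seen), beside 8.73% of all genes called lower. Differences between these lists and the pump genes were not tested.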

How the data were processed

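Total RNA was sequenced as paired-end libraries from 3 samples per group, per the labels' protocols. Per the submitters' processing notes, RSEM 1.3.3, StringTie 2.1.0, HISAT2 2.1.0 and fastp 0.19.5 were used, with the build GRCh38.p13 and no roles named. The authors deposited a table of estimated counts, unscaled between libraries, and a table of TPM values, scaled for gene length. How RNA was selected, and whether strand was kept, is not stated in these sources.

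Estimated counts were rounded, filtered with filterByExpr (minimum count 10, minimum total 15), scaled by TMM and tested with edgeR 4.0.16 (quasi-likelihood, R 4.3.3) in all 6 libraries, with Benjamini-Hochberg adjustment over 16082 genes. SEs were derived from the fold change and F. The biological coefficient of variation was 14.2%, which limits small changes. Pairs of libraries within a group gave a chi-square of 16.6 to 23.4 per degree of freedom, and each library counts as 1 sample. Limma 3.58.1, DESeq2 1.42.0, other scalings and filters, a replicate block and left-out libraries were alternatives. Symbols matched 62697 of 62703 IDs, and coordinates are GENCODE 29's on GRCh38, which may differ from the authors' annotation. Named genes were all 10 members, the tested genes of the subunit and assembly lists, up to 4 called genes per direction of 4 context lists (average log2 CPM of at least 1), TFEB, TFE3, MITF and MCOLN1. The members and lists were chosen with earlier results of these data known.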

Additional observations from a re-analysis of the deposited data

How the results depend on the processing

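Of the 10 V-ATPase genes, 2 were called, with 0 to 3 when any single library was left out. All genes called higher or lower ran from 216 to 715 and from 302 to 866 with a library left out. Without a filter on low counts 4 of the 10 and 1221 higher and 1541 lower genes were called. Limma on log2(TPM + 1) called 0 of the 10 (3 with an unadjusted p under 0.05), 229 higher and 381 lower, and on log2(TPM + 0.1) 0 (3), 249 and 398. Over all genes 3157 and 3191 of 13981 had an unadjusted p under 0.05 in these 2 fits. With no TPM filter limma called 0 of the 10 (3 unadjusted) and 0 genes higher and 0 lower (3808 of 31463 unadjusted). Without both libraries numbered 1, chosen after seeing the data, 0 of the 10 (4 unadjusted), 165 higher and 176 lower were called (3082 of 16238 unadjusted). The causes were not tested.

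The labels name no pairs, and for that reason the numbers were not taken as pairs in the main fit. Deviations of same-numbered libraries correlated at 0.409, 0.0593 and 0.261 for numbers 1, 2 and 3, and those of unlike numbers at -0.326 to 0.0795. Of the 6 libraries, 5 correlated best with their own number, while Mi-2 library 2 did so with DMSO library 3 (0.0795). Whether libraries of the same number were handled together is not stated and was not tested. A replicate block called 4 of the 10 (ATP6AP1 and ATP6V1D added), 1791 higher and 2035 lower, beside 11.1% of all genes called higher, and among the other subunits and assembly factors ATP6V0A2, ATP6V0E2, TBC1D24 and VMA21 lower and MEAK7 higher. In the lists around the pump it added RRAGC (higher) and MLST8 (lower), the channel and exchanger genes CLCN7, SLC9A9 and TMEM175 (higher) and SLC9A5 (lower), and gave 13 lysosomal genes higher and 2 lower (CTSB and CTSC), and ATP5F1A and ATP5F1B lower. These were named after their values were seen.

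Directions turned for values near 0 that were never called. With 1 library left out, ATP6V1E1 ran from -0.0010 (no DMSO library 2) to 0.13, and was -0.00032 with no Mi-2 library 2. ATP6V1F ran from -0.021 (no DMSO library 1) to 0.14, CCDC115 from -0.13 to 0.010 (no Mi-2 library 1; 0.0033 with no DMSO library 3) and TMEM199 from -0.027 (no DMSO library 3; -0.0058 with no DMSO library 2) to 0.10. MCOLN1 ran from -0.080 (no Mi-2 library 1; -0.047 with no DMSO library 3) to 0.12, and was -0.033, -0.034 and -0.033 in the limma fits to TPM (plus 1, plus 0.1, no filter) and -0.019 without both libraries numbered 1. MITF ran from -0.24 to 0.18 (no DMSO library 3; 0.021 with no Mi-2 library 3) and TLDC2 from -0.23 to 0.18 (no DMSO library 2; 0.082 with no Mi-2 library 3).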
